A study of Mus musculus with 12 samples.

Results

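The circadian clock genes described here are 10 genes of the mouse core clock and its first output layer: Per1, Per2, Per3, Cry1, Cry2, Arntl, Clock, Nr1d1, Nr1d2 and Dbp. They were taken by gene symbol from a table of raw read counts that lists 53379 genes, and the rule that takes them uses names and no measured value. All 10 had reads in every library, with at least 113 reads in each, and all 10 were among the 12386 genes tested. RNA was measured in bone marrow-derived macrophages (BMDMs), which are bone marrow cells matured into macrophages in culture with L929 cell conditioned medium. The cells came from 4 male C57Bl/6J mice, and the study used mice of 8 to 20 weeks. BMDMs of each mouse were left untreated or received 1 μM fenoterol, an agonist of the beta2-adrenergic receptor (B2AR), for 1 h or 4 h, which gives 3 groups of 4 libraries. Fenoterol was added without a change of medium, all 3 groups were kept in the same medium, and no vehicle is named for the untreated cells. The design asks which transcripts respond to B2AR activation early and which respond late.

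In the mammalian clock, the proteins CLOCK and BMAL1 (encoded by Arntl) pair up and activate genes that carry an E-box in their control regions. Among these genes are the Per and Cry repressors, which accumulate and shut off their own activators, and the REV-ERB receptors (Nr1d1 and Nr1d2), which repress Arntl through ROR elements. DBP, another product of the E-box genes, activates genes through the D-box. Per1 can also be induced from outside the loop, through cAMP and the transcription factor CREB, which binds the cAMP response element (CRE). Macrophages carry a clock of their own, and B2AR raises cAMP in these cells.

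The libraries held between 14580533 and 24153284 reads counted on genes. The macrophage markers Adgre1, Itgam, Csf1r, Cd68, Mertk, Fcgr1 and Lyz2 were all present, with summed normalized counts of 625780 to 781038 per library. Marker sums for B cells, T cells and erythroid cells were at most 6.26 per library, and those of neutrophils and fibroblasts ran from 325 to 619 and from 227 to 640. The range of the neutrophil and fibroblast sums in untreated libraries overlapped that in fenoterol libraries. Dendritic cell sums were at most 25.4 per library. Mast cell or basophil sums were 3.23 to 16.4 in untreated libraries, 9.22 to 19.5 at 1 h and 3.13 to 7.79 at 4 h. Of these markers Kit, with 1 to 19 reads per library, was lower at 4 h than at 1 h (log2 fold change -1.59, edgeR adjusted p = 0.0464). The summed macrophage level was 734479 to 772885 in untreated libraries and 625780 to 716073 at 4 h, most of it from Lyz2. At 4 h the 7 markers went both ways, with Itgam and Fcgr1 higher (log2 fold change 0.42 and 0.72, edgeR adjusted p = 7.58e-06 and 0.00073) and Mertk, Csf1r, Cd68 and Adgre1 lower (-1.51, -0.26, -0.22 and -0.21, edgeR adjusted p = 5.13e-11, 0.0394, 0.0296 and 0.0183). At 1 h Mertk was lower as well (-0.20, edgeR adjusted p = 0.0153), and the other 6 did not pass. The part of these shifts in the results was not tested. The labels do not give the hour at which the wells were lysed, so a change due to fenoterol and one due to the hour of the day or to the time in culture cannot be told apart.

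The stretch of 250 bases before the transcription start was read for 9 of the 10 genes from RefSeq sequences of the GRCm38.p6 build, with 13 starts in all. The windows of Per1 are printed for its CRE core, and those of Per3, Cry1 and Nr1d1 as examples of the D-box, the E-box and the E-prime box among genes that passed the test below. Capitals mark exact matches on either strand to TGACG (the core of the CRE), CACGTG (E-box), CACGTT (an E-box variant called the E-prime box), TTATGTAA (D-box) or AGGTCA (the core of the ROR element). The windows lie at chr11:69098699-69098948 and chr11:69099902-69100151 on the forward strand for the Per1 starts, and on the reverse strand at chr4:151044666-151044915 for Per3, chr10:85185055-85185304 for Cry1 and chr11:98775378-98775627 for Nr1d1.
Per1, start 1: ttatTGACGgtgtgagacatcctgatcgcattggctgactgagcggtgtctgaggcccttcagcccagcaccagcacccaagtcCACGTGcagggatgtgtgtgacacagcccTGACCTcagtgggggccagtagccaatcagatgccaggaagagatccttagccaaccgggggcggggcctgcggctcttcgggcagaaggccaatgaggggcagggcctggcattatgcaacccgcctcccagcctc
Per1, start 2: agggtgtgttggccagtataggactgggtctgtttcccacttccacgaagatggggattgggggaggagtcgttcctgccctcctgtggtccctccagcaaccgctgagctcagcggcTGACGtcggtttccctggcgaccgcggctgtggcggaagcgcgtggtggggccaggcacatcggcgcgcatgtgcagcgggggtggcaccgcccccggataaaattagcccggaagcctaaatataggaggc
Per3: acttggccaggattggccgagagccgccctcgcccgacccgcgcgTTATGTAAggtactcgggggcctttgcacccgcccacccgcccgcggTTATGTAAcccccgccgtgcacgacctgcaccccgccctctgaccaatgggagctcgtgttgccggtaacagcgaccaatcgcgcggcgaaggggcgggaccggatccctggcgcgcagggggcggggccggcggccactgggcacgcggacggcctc
Cry1: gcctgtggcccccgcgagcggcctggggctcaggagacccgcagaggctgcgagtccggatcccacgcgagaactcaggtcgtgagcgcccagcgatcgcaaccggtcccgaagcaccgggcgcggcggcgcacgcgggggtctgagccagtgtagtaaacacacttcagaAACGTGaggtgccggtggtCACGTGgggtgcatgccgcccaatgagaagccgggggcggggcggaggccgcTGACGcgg
Nr1d1: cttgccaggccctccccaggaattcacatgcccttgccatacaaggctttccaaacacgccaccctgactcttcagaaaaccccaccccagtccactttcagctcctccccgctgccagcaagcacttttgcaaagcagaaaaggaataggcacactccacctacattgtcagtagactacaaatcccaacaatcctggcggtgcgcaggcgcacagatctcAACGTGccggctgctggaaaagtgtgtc

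Both Per1 windows held the CRE core, at position -246 to -242 before the first start and at -132 to -128 before the second. The first Per1 window also held an E-box at -166 to -161 and an AGGTCA on the opposite strand. Both of these windows lie within the annotated Per1 gene, whose outermost transcript begins further upstream, and 1 base of the first is annotated exon. Cry1 held TGACG, an E-box and an E-prime box together, with TGACG at -8 to -4, next to the start. Of its window, 10 bases are annotated exon of a longer transcript. Per3 held the D-box at 2 places, -205 to -198 and -158 to -151. Nr1d1 held an E-prime box on the opposite strand, at -28 to -23.

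Among the windows not printed, that of Cry2 held TGACG and CACGTT, that of Nr1d2 and the third Clock window held AGGTCA, and those of Arntl and Dbp held none of the motifs. The full CRE, TGACGTCA, was in none of the 13 windows, and neither was the D-box variant TTACGTAA. Over all 32851 windows of this length, TGACG was present in 17.8%, AGGTCA in 14%, CACGTG in 6.02%, CACGTT in 3.85%, TGACGTCA in 1.55%, TTATGTAA in 0.819% and TTACGTAA in 0.113%. A match gives the letters alone and not a bound site, and the absence of a match covers only these 250 bases.

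At 1 h of fenoterol, Per1 rose 5.97-fold and was the one clock gene that passed the test as higher, while Arntl, Nr1d1 and Dbp fell. At 4 h, Per1, Per2, Cry1 and Cry2 were higher than in untreated cells and Per3, Nr1d2 and Dbp were lower. Levels below are normalized counts, that is, reads scaled to the mean library size with TMM factors, and a gene passed when its adjusted p in edgeR's quasi-likelihood test was under 0.05. At 1 h, 4 of the 10 genes passed against 20.1% of all 12386 genes tested, with 1 higher (10.0% of all genes) and 3 lower (10.1%). With the mouse as a replicate block, Cry1 and Cry2 also passed as higher at 1 h, which made 6 of the 10 against 27.0% of all genes. At 4 h, 7 of the 10 passed against 40.0% of all genes, with 4 higher (19.7%) and 3 lower (20.4%). Without the untreated library of mouse 3, Per2 and Cry2 no longer passed at 4 h, which left 5 of the 10, with 2 higher and 3 lower. From 1 h to 4 h, 7 of the 10 passed against 38.5%, with 3 higher (18.7%) and 4 lower (19.8%).

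The untreated and fenoterol libraries did not overlap for 5 of the 10 genes at 1 h, against 23.0% of all genes, and for 7 at 4 h, against 37.6%. Between 1 h and 4 h, 8 of the 10 did not overlap, against 35.9%. Per2 counted in both 4 h comparisons by a narrow margin, its lowest 4 h value being 211.7. Its highest untreated value was 211.6 and its highest 1 h value 210.1. The median log2 fold change of the 10 genes was -0.02 at 1 h and 0.04 at 4 h, next to -0.0049 and 0.0042 over all genes. Their median size of change, regardless of direction, was 0.25 at 1 h and 0.60 at 4 h on the log2 scale, next to 0.15 and 0.23 over all genes. The comparisons at 1 h and 4 h share the untreated libraries. In bulk RNA of this kind, fewer cells that express a gene and less RNA of it per cell cannot be told apart.

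**Figure D1:**
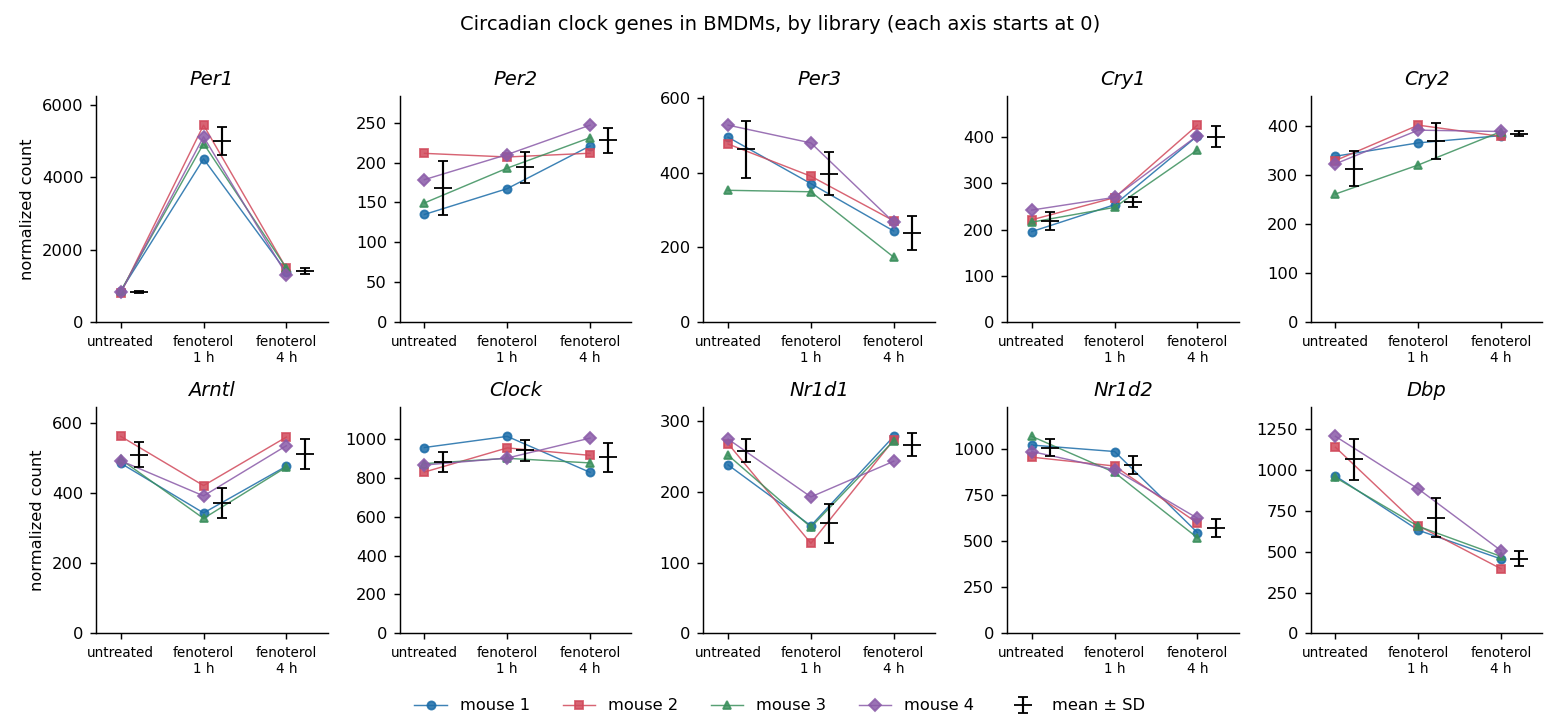
Normalized count (vertical axes, starting at 0) of each of the 10 clock genes in untreated BMDMs and after 1 h and 4 h of 1 μM fenoterol, with a point and line for each of 4 mice and the mean ± SD of each group in black. Per1 peaks at 1 h in all 4 mice, Arntl and Nr1d1 dip at 1 h and are back at 4 h, Cry1 climbs at 4 h, and Dbp declines at both times.

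Per1 (ENSMUSG00000020893, chr11:69095217-69109960 on the forward strand of GRCm38) encodes a period protein, a repressor of CLOCK and BMAL1. In untreated BMDMs of mice 1 to 4 it stood at 858, 807, 859 and 825 normalized counts. After 1 h of fenoterol the same mice gave 4507, 5439.8, 4929.5 and 5119, and after 4 h they gave 1391, 1482, 1490.0 and 1313. Every 1 h library was above every 4 h library, and every 4 h library above every untreated one. The rise at 1 h was 5.97-fold, a log2 fold change of 2.58 with a standard error (SE) of 0.066 and an edgeR adjusted p of 1.62e-12. It was the 101st highest log2 fold change of the 12386 genes tested. At 4 h Per1 was still 1.69-fold above untreated cells (log2 fold change 0.76, SE 0.064, edgeR adjusted p = 2.59e-07), and from 1 h to 4 h it fell by 1.82 on the log2 scale (edgeR adjusted p = 1.52e-10). All 4 mice moved in the same direction in each of these comparisons.

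Per2 (ENSMUSG00000055866, chr1:91415982-91459324, reverse strand) encodes a second period protein with the same role. Its untreated values in mice 1 to 4 were 135, 212, 149 and 179, its 1 h values 167, 207, 193 and 210.1, and its 4 h values 221, 212, 231 and 247. Untreated and 1 h libraries overlapped, and mouse 2 stayed at about the same level throughout. At 1 h the log2 fold change of 0.21 (95% interval -0.08 to 0.50) did not pass, with an edgeR adjusted p of 0.319. At 4 h Per2 rose by 0.44 on the log2 scale (SE 0.133, edgeR adjusted p = 0.0157), with mice 1, 3 and 4 higher and mouse 2 at 212 in both groups. This call rested on single libraries. Without the untreated library of mouse 1 the value was 0.35 with an edgeR adjusted p of 0.0567, and without that of mouse 3 it was 0.38 with 0.0554, in a range of 0.00242 to 0.0567 over 20 alternatives.

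Per3 (ENSMUSG00000028957, chr4:151003652-151044665, reverse strand) is the third period gene. It gave 495, 477, 353 and 527 in untreated mice 1 to 4, then 371, 390.4, 349 and 479.6 at 1 h, and 244, 271, 174 and 267 at 4 h. Untreated and 1 h values overlapped, whereas all 4 h values were below all others. The 1 h log2 fold change was -0.22 (95% interval -0.54 to 0.10, edgeR adjusted p = 0.369). At 4 h Per3 fell by 48.3%, a log2 fold change of -0.95 (SE 0.154, edgeR adjusted p = 0.00017), and the drop from 1 h to 4 h also passed (log2 fold change -0.73, edgeR adjusted p = 0.00175). At 4 h Per3 was thus below and Per1 above the untreated level.

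Cry1 (ENSMUSG00000020038, chr10:85131700-85185064, reverse strand) encodes a cryptochrome, the partner of the period proteins in repression. Its untreated values were 196, 221, 216 and 242 in mice 1 to 4, followed by 254, 269, 248 and 269.5 at 1 h and 402, 426, 372 and 403 at 4 h. The 3 groups did not overlap with each other. At 4 h Cry1 was 1.83-fold above untreated cells (log2 fold change 0.87, SE 0.084, edgeR adjusted p = 1.02e-06), and it was higher at 4 h than at 1 h by 0.62 on the log2 scale (edgeR adjusted p = 3.66e-05). The 1 h log2 fold change of 0.25 (SE 0.085) missed the threshold with an edgeR adjusted p of 0.0512, although all 4 mice were higher. With the mouse as a replicate block its edgeR adjusted p was 0.0307, and without the untreated library of mouse 4 it was 0.0304, in a range of 0.0304 to 0.164 over the alternatives.

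Cry2 (ENSMUSG00000068742, chr2:92403646-92434043, reverse strand) encodes the second cryptochrome. It stood at 338, 329, 261 and 323 in untreated mice 1 to 4, at 366, 402, 320.4 and 391 after 1 h, and at 380.3, 379, 388 and 389 after 4 h. Mouse 3 was the lowest in the untreated and the 1 h group, and the 4 h libraries lay close together, above all untreated ones. At 4 h Cry2 rose by 0.30 on the log2 scale (SE 0.093, edgeR adjusted p = 0.0204). Without the untreated library of mouse 3 this became 0.21 with an edgeR adjusted p of 0.078, in a range of 0.00554 to 0.078. At 1 h the log2 fold change was 0.24 (SE 0.094, edgeR adjusted p = 0.0926), with all 4 mice higher. With the replicate block its edgeR adjusted p was 0.0385, and without the 1 h library of mouse 3 it was 0.0362 with a log2 fold change of 0.31, in a range of 0.0362 to 0.226. From 1 h to 4 h the difference of 0.06 had a 95% interval of -0.14 to 0.25.

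Arntl (ENSMUSG00000055116, chr7:113207465-113314126, forward strand) encodes BMAL1, the activator that pairs with CLOCK. In untreated mice 1 to 4 it gave 484, 561, 495 and 492, at 1 h 343, 421, 327 and 391, and at 4 h 476, 559, 474 and 534. All 1 h values were below all untreated and all 4 h values, and the untreated and 4 h values overlapped. The fall at 1 h was 27.0% (log2 fold change -0.45, SE 0.091, edgeR adjusted p = 0.00221), and the rise from 1 h to 4 h was 0.46 on the log2 scale (edgeR adjusted p = 0.000954). At 4 h the log2 fold change against untreated cells was 0.01, with a 95% interval of -0.18 to 0.20 and an edgeR adjusted p of 0.949. Mouse 2 had the highest value in each of the 3 groups.

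Clock (ENSMUSG00000029238, chr5:76209868-76304792, reverse strand), which encodes the partner of BMAL1, passed in none of the 3 comparisons by edgeR, at either the adjusted or the unadjusted p. Its lowest and highest values were 829 and 955 without fenoterol, 899 and 1012 after 1 h, and 827 and 1003 after 4 h. The 3 ranges overlapped. The log2 fold change was 0.10 at 1 h (95% interval -0.05 to 0.24, edgeR adjusted p = 0.39) and 0.04 at 4 h (95% interval -0.11 to 0.19, edgeR adjusted p = 0.687).

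Nr1d1 (ENSMUSG00000020889, chr11:98767932-98775333, reverse strand) encodes REV-ERBα, a nuclear receptor that represses Arntl. It stood at 238, 268, 252 and 274 in untreated mice 1 to 4, at 152, 127, 149.9 and 193 after 1 h, and at 278, 273, 272 and 243 after 4 h. The 1 h libraries lay below all others, and the untreated and 4 h libraries overlapped. At 1 h Nr1d1 fell by 39.6% (log2 fold change -0.73, SE 0.117, edgeR adjusted p = 0.000367), and from 1 h to 4 h it rose by 0.78 on the log2 scale (edgeR adjusted p = 0.000108). The difference between 4 h and untreated cells was 0.05, with a 95% interval of -0.19 to 0.29 and an edgeR adjusted p of 0.779. Nr1d1 and Arntl, a repressor and its target in the textbook loop, were thus both lowest at 1 h.

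Nr1d2 (ENSMUSG00000021775, chr14:18204054-18239127, reverse strand) encodes REV-ERBβ, the related receptor. Its untreated values in mice 1 to 4 were 1022, 956, 1069 and 987, its 1 h values 987, 908, 873 and 888, and its 4 h values 547, 599, 519 and 625. Untreated and 1 h libraries overlapped and all 4 h libraries were far below both. At 4 h Nr1d2 fell by 43.2% (log2 fold change -0.82, SE 0.067, edgeR adjusted p = 1.89e-07), and the fall from 1 h to 4 h was 0.67 on the log2 scale (log2 fold change -0.67, edgeR adjusted p = 2.12e-06). At 1 h the log2 fold change of -0.14 had an edgeR adjusted p of 0.159. Scaled by library size alone, it was -0.21 with an edgeR adjusted p of 0.0313, in a range of 0.0313 to 0.345 over the alternatives.

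Dbp (ENSMUSG00000059824, chr7:45705088-45710203, forward strand) encodes the activator of D-box genes and is widely used as a readout of clock output. It gave 964, 1139, 954 and 1206 in untreated mice 1 to 4, then 631, 659, 656 and 884 at 1 h, and 455, 395, 471 and 506 at 4 h. The 3 groups did not overlap, with mouse 4 well above the other mice at 1 h. Dbp fell by 33.5% at 1 h (log2 fold change -0.59, SE 0.113, edgeR adjusted p = 0.00163) and by 57.0% at 4 h (log2 fold change -1.22, SE 0.116, edgeR adjusted p = 9.28e-07). Its fall from 1 h to 4 h passed as well (log2 fold change -0.63, edgeR adjusted p = 0.000632), and it was the one clock gene that passed the test as lower than untreated cells at both times.

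**Figure D2:**
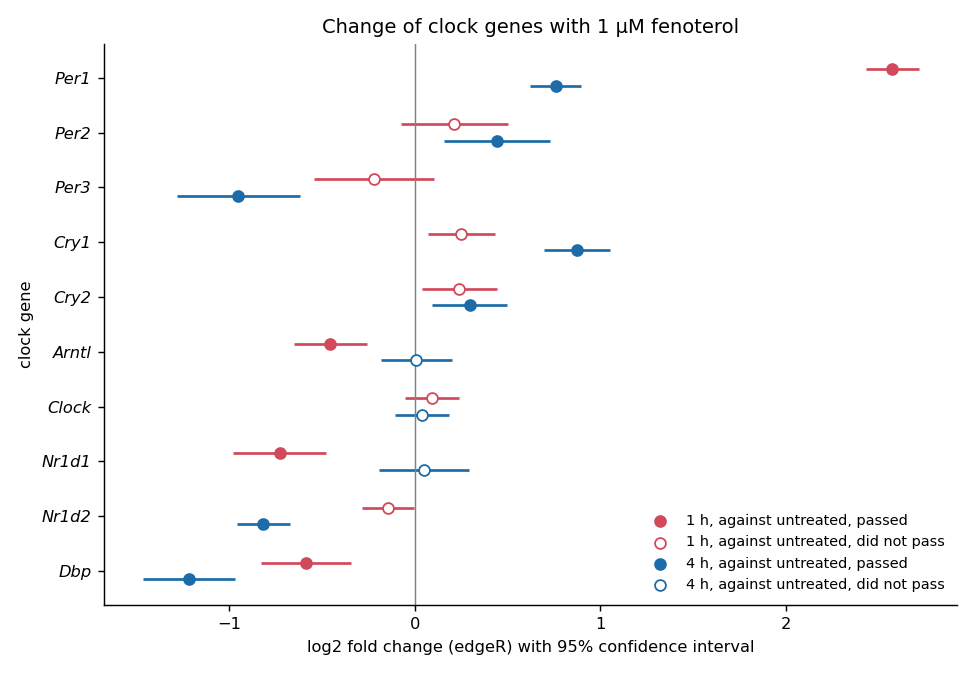
Log2 fold change of each clock gene against untreated BMDMs (horizontal axis) at 1 h (red) and 4 h (blue), with 95% confidence intervals as lines and filled points where the edgeR adjusted p was under 0.05. Per1 lies far to the right at 1 h with 2.58, and Nr1d1 and Arntl lie below 0 at 1 h alone. Per3 and Nr1d2 lie below 0 by their intervals' full width at 4 h, and Dbp does so at both times. The intervals are not adjusted for the number of genes tested. Those of Cry1, Cry2 and Nr1d2 at 1 h exclude 0 although their points are open.

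For Dbp and Nr1d1, exons of a neighbour on the opposite strand overlap their own. Sphk2, a sphingosine kinase gene, shares 539 of the 2993 exon bases of Dbp (18.0%) and held 37492 reads over all libraries against 8784 for Dbp. Sphk2 had a log2 fold change of -0.10 at 1 h (edgeR adjusted p = 0.448) and rose by 0.49 at 4 h (edgeR adjusted p = 0.000108), while Dbp fell at both times. Thra, a thyroid hormone receptor gene, shares 263 of the 3077 exon bases of Nr1d1 (8.55%) and held 6660 reads against 2728. Its log2 fold change was -0.05 at 1 h and -0.17 at 4 h, and neither passed (edgeR adjusted p = 0.814 and 0.206). The libraries were stranded, but the strand setting of the read counting is not given in the sources used here, so reads of these neighbours within the counts of Dbp and Nr1d1 were not tested.

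Levels of different genes were compared as normalized counts per kilobase (kb) of annotated exon. In untreated BMDMs Dbp was the highest of the 10 at 356 ± 42.2 per kb (SD, n = 4), followed by Nr1d2 at 186 ± 8.97, Per1 at 149 ± 4.51 and Nr1d1 at 83.8 ± 5.34. These 4 did not overlap with each other. Arntl, Cry1 and Clock, at 67.5, 65.4 and 64.1 per kb, overlapped with each other, as did Cry2 and Per3 at 49.5 and 48.2. Per2 was the lowest at 28.8 ± 5.79.

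After 1 h of fenoterol Per1 was first at 888 ± 69.2 per kb, ahead of Dbp at 236 ± 39.6 and Nr1d2 at 169 ± 9.33, with no overlap among them. Cry2, Nr1d1, Arntl and Per3 formed a chain of overlapping neighbours between 58.5 and 41.4 per kb, so Nr1d1 and Arntl, which were above Cry2 in untreated cells, overlapped with it. At 4 h Per1 was still first at 252 ± 14.8 per kb, above Dbp at 153 ± 15.5. Cry1, at 119.9 ± 6.6 per kb, overlapped with Nr1d2 at 106 ± 8.89, which had been far above it in untreated cells. Per3 was now the lowest at 24.9 ± 4.69, below Per2 at 38.9 ± 2.58 with no overlap.

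**Figure D3:**
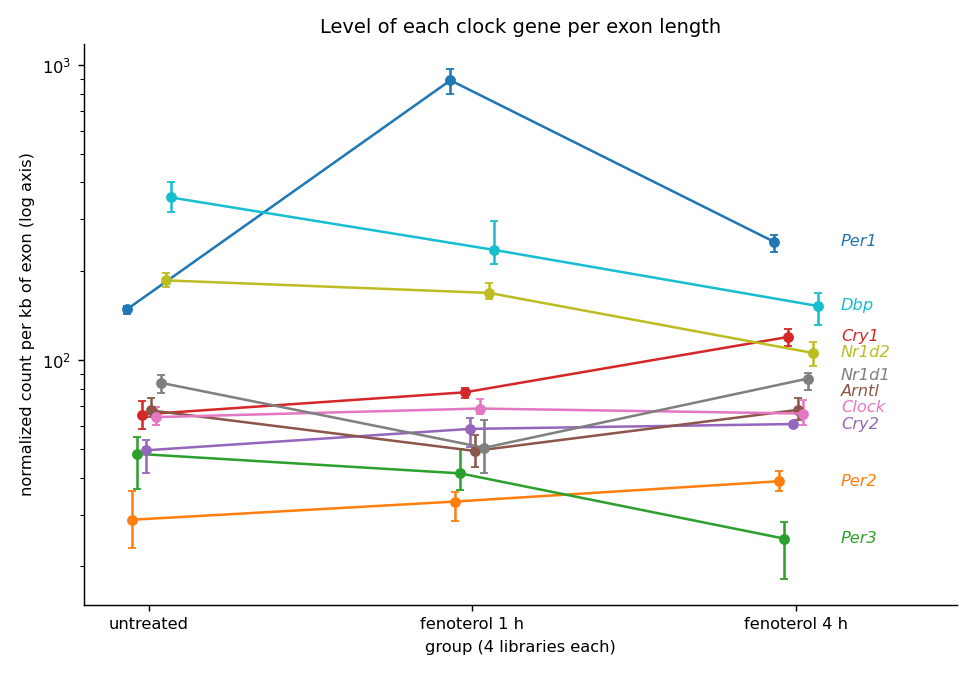
Mean normalized count per kb of exon (vertical log axis) of the 10 clock genes in untreated BMDMs and after 1 h and 4 h of 1 μM fenoterol, with bars from the lowest to the highest of 4 libraries. Per1 moves from place 3 to place 1 at 1 h and stays there, and Per2 and Per3 change places at 4 h.

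Shares within related genes were then taken on the per-kb scale in each library, which compares the genes' responses with each other and does not depend on library scaling. These 8 share tests were chosen after the values had been seen. Per1 made up 66.0% ± 3.92 (SD, n = 4) of the summed Per1, Per2 and Per3 level without fenoterol, 92.3% ± 0.619 after 1 h and 79.8% ± 2.16 after 4 h. The summed level itself was 226 per kb untreated, 962 at 1 h and 316 at 4 h. Both increases in the Per1 share had the smallest p that an exact two-sided permutation test of 4 against 4 libraries can give, 0.0286, or 0.0381 after Benjamini-Hochberg adjustment over the 8 tests, with all 4 mice in the same direction. The shuffling ignored which mouse a library came from, and an exact test within the 4 mice cannot give a p below 0.125.

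Cry1 held 57.0% ± 3.77 of the Cry1 and Cry2 level in untreated cells and 57.2% ± 1.55 at 1 h, which differed by less than the spread between libraries (exact permutation p = 0.914). At 4 h its share was 66.3% ± 1.48 (exact permutation p = 0.0286, adjusted 0.0381). The Arntl share of Arntl and Clock was 51.3% ± 2.97 untreated, 41.7% ± 3.18 at 1 h (exact permutation p = 0.0286, adjusted 0.0381) and 50.7% ± 1.58 at 4 h (exact permutation p = 0.771). Of the REV-ERB genes, Nr1d1 fell at 1 h and Nr1d2 at 4 h, and neither passed as higher than untreated cells. Nr1d1 made up 31.0% ± 2.17 of their summed level in untreated cells, 23.0% ± 3.4 at 1 h and 45.1% ± 3.32 at 4 h, each with an exact permutation p of 0.0286 (adjusted 0.0381) and all 4 mice in the same direction.

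**Figure D4:**
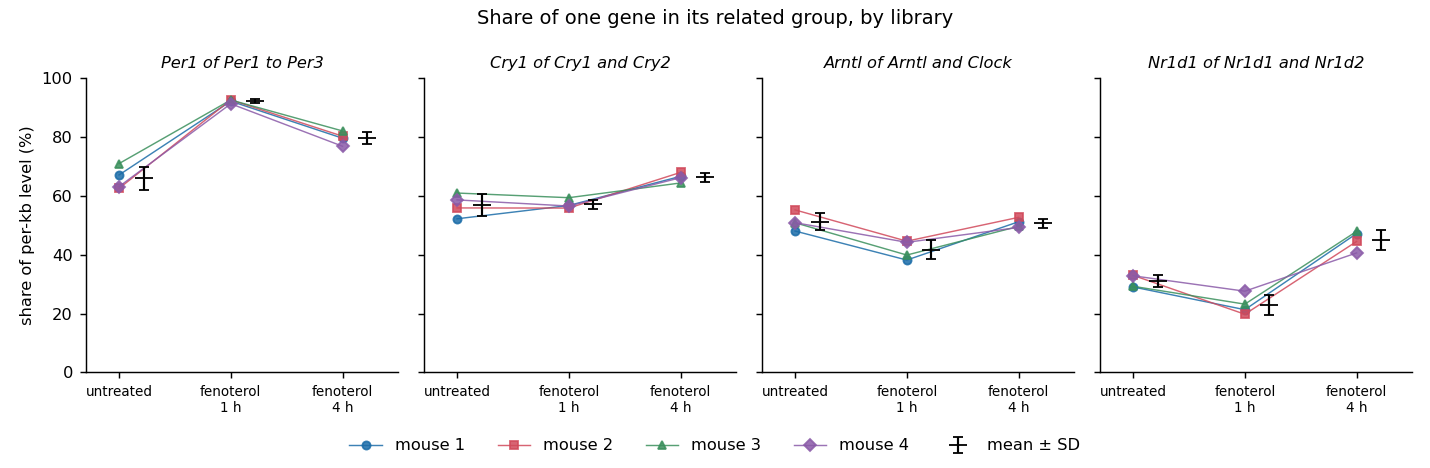
Share in percent (vertical axis, 0 to 100) of Per1 in the summed per-kb level of Per1 to Per3, of Cry1 in Cry1 and Cry2, of Arntl in Arntl and Clock, and of Nr1d1 in Nr1d1 and Nr1d2, for each of 4 mice in each group, with the mean ± SD in black. The Per1 share is 92.3% at 1 h, and the Nr1d1 share falls to 23.0% at 1 h and is 45.1% at 4 h.

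The genes whose profile over the 12 libraries was most like that of each clock gene were found by the root mean square (RMS) difference of log2 normalized counts, each centred on the untreated mean, among 10289 genes. For Per1 these were Lin54, Zfp667 and Cd83, with RMS differences of 0.198, 0.201 and 0.21 on the log2 scale. Cd83, a surface protein of activated antigen-presenting cells, changed by 2.69 on the log2 scale at 1 h and by 0.60 at 4 h. The nearest profiles to Arntl were those of Kdm5b, Mlh3 and Rnf169 (0.0704 to 0.0935), and those nearest to Nr1d1 were Kctd21, Dido1 and Nckap5l (0.117 to 0.133).

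For Dbp the nearest were Herpud1, H2-K2 and Adap2 (0.129 to 0.165), for Per3 A130077B15Rik, Selenbp1 and Slc29a1 (0.148 to 0.173), and for Nr1d2 Snx5, Tec and Rragc (0.0806 to 0.0854). Cry1 was nearest to Ocrl, Itpa and Ermp1 (0.0739 to 0.0925), Cry2 to Syk, Fcgr3 and Ing1 (0.0722 to 0.0924), Per2 to Pf4, Nenf and Gtf2h5 (0.119 to 0.131) and Clock to Ddx5 and Opa1 (0.051 and 0.0586). No clock gene was among the 3 nearest of another. Between clock genes, the smallest differences were those of Per2 with Cry2 (0.192), Cry2 with Clock (0.215), Per3 with Nr1d2 (0.236) and Arntl with Nr1d1 (0.249). Many other genes lay nearer in each case. Among the 10288 genes compared with each, Cry2 was in place 137 for Per2, Clock in place 1508 for Cry2, Nr1d2 in place 46 for Per3 and Nr1d1 in place 1208 for Arntl. Seen from the other gene of each pair, the places were 918, 4139, 419 and 94.

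A wider list of 30 other genes of the clock pathway held 27 that were tested. The other 3, Rorb and Hlf among them, had too few reads, with at most 12 in any library. At 1 h, 4 of the 27 were higher and 3 lower, which is 25.9% against 20.1% of all genes, and with the replicate block 11 passed, against 27.0% of all genes. At 4 h, 5 were higher and 10 lower (55.6% against 40.0%), and from 1 h to 4 h, 5 were higher and 11 lower (59.3% against 38.5%). Their median log2 fold change was 0.04 at 1 h, -0.07 at 4 h and -0.15 from 1 h to 4 h.

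The D-box repressor gene Nfil3, whose product competes with DBP for the same motif, had the largest change of the list. It gave 333, 344, 292 and 259 in untreated mice 1 to 4, then 6874, 7759.8, 5589.9 and 5859 at 1 h, and 1502, 1926, 1510.3 and 1304 at 4 h. No group overlapped with another, as was the case for Per1, Cry1 and Dbp. The log2 fold change of Nfil3 was 4.41 at 1 h (SE 0.146, edgeR adjusted p = 1.99e-11) and 2.35 at 4 h (SE 0.138, edgeR adjusted p = 6e-09). Of the other D-box activators, Tef fell by 0.26 at 1 h on the log2 scale (edgeR adjusted p = 0.00746), and Hlf was not tested.

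Among the activators, Npas2, which can stand in for Clock, stood at 78.2 ± 13.1 normalized counts untreated and 79.1 ± 17.4 at 1 h and fell to 11.7 ± 5.91 at 4 h (log2 fold change -2.71, edgeR adjusted p = 3.6e-06). Among the repressors, Cipc, which binds CLOCK, fell at both times, with log2 fold changes of -0.53 and -1.14 (edgeR adjusted p = 0.0123 and 1.14e-05). Bhlhe41, an E-box repressor, fell at 4 h (log2 fold change -1.33, edgeR adjusted p = 7.55e-05) but did not pass at 1 h (-0.56, edgeR adjusted p = 0.0553), although all 4 mice were lower. Ciart was higher at 4 h than at 1 h by 0.82 (edgeR adjusted p = 0.0185), with log2 fold changes against untreated cells of -0.74 at 1 h (edgeR adjusted p = 0.0573) and 0.09 at 4 h (edgeR adjusted p = 0.813). At 1 h all 4 mice were lower in Ciart. Rora, the activator that opposes REV-ERB at ROR elements, was lower at 4 h than at 1 h (log2 fold change -1.12, edgeR adjusted p = 1.31e-07). It was also lower at 4 h than in untreated cells (-0.95, edgeR adjusted p = 4.79e-07) and did not pass at 1 h (0.17, edgeR adjusted p = 0.187).

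Of the enzymes that modify clock proteins, Usp2, a deubiquitinase, rose from 60.7 ± 4.78 to 103 ± 16.6 normalized counts at 1 h (log2 fold change 0.75, edgeR adjusted p = 0.0194) and was at 25.4 ± 9.78 at 4 h, below the untreated level (log2 fold change -1.28, edgeR adjusted p = 0.000473) and below that at 1 h (-2.03, edgeR adjusted p = 7.13e-06). The phosphatase gene Ppp1cb rose by 0.33 on the log2 scale at 1 h (edgeR adjusted p = 0.0246). Csnk1e, a casein kinase that phosphorylates period proteins, fell at 1 h (log2 fold change -0.41, edgeR adjusted p = 0.000105). At 4 h the kinase genes Csnk2a1, Prkaa1 and Csnk1a1 were higher than in untreated cells by 0.35, 0.32 and 0.29 on the log2 scale (edgeR adjusted p = 0.00159, 0.00101 and 0.00257). At the same time Csnk1e was lower (log2 fold change -0.77, edgeR adjusted p = 8.01e-08), as was Gsk3b (-0.16, edgeR adjusted p = 0.00962), so 3 of the 7 kinase and phosphatase genes were higher and 2 lower, next to 19.7% and 20.4% of all genes. Btrc, of the ubiquitin ligase that handles period proteins, was higher at 4 h than at 1 h by 0.36 (edgeR adjusted p = 0.00107). Fbxw11, listed in the same role, went the other way (log2 fold change -0.42, edgeR adjusted p = 6.74e-06). Of the 5 ubiquitin ligase or protease genes, 1 was higher and 3 were lower from 1 h to 4 h. Over all genes these shares were 18.7% and 19.8%. The output genes Wee1 and Nampt did not pass in any comparison by edgeR, and their unadjusted p ran from 0.174 to 0.901.

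**Figure D5:**
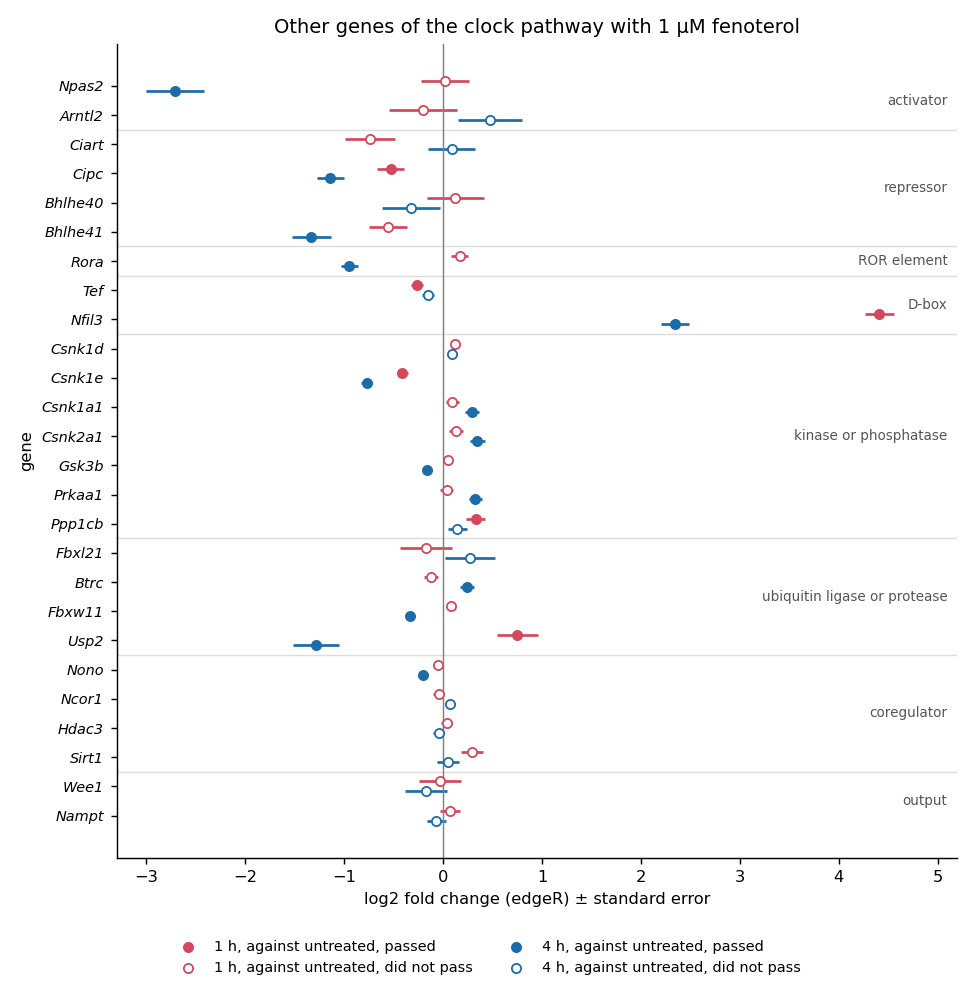
Log2 fold change ± SE (horizontal axis) of tested genes of the wider clock list against untreated BMDMs at 1 h (red) and 4 h (blue), grouped by role, with filled points where the edgeR adjusted p was under 0.05. Nfil3 stands apart at 4.41 and 2.35, Npas2 is at -2.71 at 4 h alone, and Usp2 changes side between 1 h and 4 h.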

How the data were processed

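The authors prepared stranded mRNA libraries from total RNA, sequenced single-end reads of 50 bases, mapped them to GRCm38 with TopHat (version 2.0.11) and counted reads per gene with HTSeq-count (version 0.8.0). The deposited values are these counts per gene and library, as whole numbers without normalization. The annotation release and the strand option are not given in the sources used here. Symbols were matched to the deposited identifiers through GENCODE M21 for 53274 of 53379 genes, and the table has 0 rows that name no gene.

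Counts were analysed in R 4.3.3 with edgeR 4.0.16, using TMM factors, the filterByExpr filter and the quasi-likelihood test with Benjamini-Hochberg adjustment over all 12386 genes tested. A single fit took all 12 libraries with a mean per group (common biological coefficient of variation 0.112). The study's own test was limma on variance-stabilized values. The SE was taken as the absolute log2 fold change divided by the square root of the F statistic. Alternatives were DESeq2 1.42.0, limma-voom (limma 3.58.1), other scalings and filters, a fit of the 2 groups alone, the mouse as a block, and each library left out, 20 in all. On simulated counts for 1 h against untreated, with 200 of 12227 genes changed, edgeR recovered 181 and made 6 false calls. The changed genes moved by at least 1 on the log2 scale, and no mouse effect was simulated. Recovery of smaller changes, such as most of those of the clock genes, was not tested.

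Equal mouse numbers in the labels mark cells of the same mouse. Deviations from the group means correlated at 0.291 to 0.561 within a mouse (12 pairs) and at -0.300 to 0.0849 between mice (36 pairs), so the numbers pair the libraries. No pair of replicates agreed within sampling noise (chi-square per degree of freedom 9.29 to 19.4). Sequencing depth ran from 14580533 to 24153284 counts per library.

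Levels per kb used the union of annotated exons, and the search for alike profiles was limited to genes whose normalized counts averaged 50 or more, with 1 added before taking log2. The 10 clock genes, the wider list, the marker lists and the motifs were chosen with earlier results of these data known. From the wider list, up to 4 genes per direction and comparison that passed were named, by the size of the log2 fold change, together with untested genes. A few genes that these rules select are not reported here. Wee1, Nampt, Gsk3b and Fbxw11 were named after their values were seen.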

Additional observations from a re-analysis of the deposited data

Results flagged for a closer look

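Arntl in the untreated library of mouse 2 was the highest of its group at 561 normalized counts, with the other mice between 484 and 495, and its gap to the nearest of them was 0.857 of the group's range. Without that library the fall of Arntl at 1 h was -0.41 on the log2 scale (edgeR adjusted p = 0.00918). Dbp in the 1 h library of mouse 4 was the highest of its group at 884, with the others between 631 and 659, and its gap was 0.89 of the range. Without that library the log2 fold change of Dbp at 1 h was -0.71 (edgeR adjusted p = 0.000115). These are 2 of 30 groups, and chance flags about 1 in 20, or 1.5 here.

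The level at 4 h of fenoterol differed from that at 1 h for 7 of the 10 clock genes, against 38.5% of all genes, by the edgeR test. A difference due to fenoterol and one due to the hour of the day or the time in culture cannot be told apart. The log2 fold change of 4 h against 1 h was -1.82 for Per1, -0.73 for Per3, -0.67 for Nr1d2 and -0.63 for Dbp. It was 0.78 for Nr1d1, 0.62 for Cry1 and 0.46 for Arntl. In each of these 7 genes all 4 mice moved in the direction given.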

How the results depend on the processing

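Of 600 values of the 10 clock genes over 3 comparisons and 20 alternatives, 582 kept their direction and their side of the threshold. The log2 fold change of Per1 at 1 h stayed between 2.51 and 2.62, and Per1, Per3, Cry1, Nr1d2 and Dbp at 4 h and Arntl, Nr1d1 and Dbp at 1 h passed in all 20. Of the changes, 6 were gains of a call, all at 1 h in Cry1, Cry2 and Nr1d2, and 3 were losses at 4 h in Per2 and Cry2. With the mouse as a replicate block (the paired fit), 6 clock genes passed at 1 h in place of 4, the additions being Cry1 and Cry2, and 7 at 4 h. The paired fit called 3348 of all genes at 1 h and 5870 at 4 h, against 2493 and 4958, and 11 genes of the wider list at 1 h against 7. It changed no other call of the 10 clock genes.

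Directions changed only in differences near 0. With a library left out, Arntl at 4 h ran from -0.035 to 0.059, Clock at 4 h ran from -0.014 to 0.082 and Cry2 from 1 h to 4 h from -0.025 to 0.097. Clock from 1 h to 4 h was 0.039 with scaling by library size alone. That scaling moved the median of all genes by -0.068 at 1 h, 0.024 at 4 h and 0.093 from 1 h to 4 h, and Clock moved with it in the last. The cause of the other changes of direction was not tested. The 8 share tests cannot give a p below 0.0286 with 4 libraries in a group.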
